A study of Arabidopsis thaliana with 3 samples.

Results

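The JASMONATE ZIM-DOMAIN (JAZ) genes encode the repressors that hold jasmonate signalling off in plant cells. The rows of JAZ1 (AT1G19180), JAZ2 (AT1G74950), JAZ3 (AT3G17860), JAZ5 (AT1G17380), JAZ6 (AT1G72450), JAZ7 (AT2G34600), JAZ8 (AT1G30135), JAZ9 (AT1G70700), JAZ10 (AT5G13220) and JAZ12 (AT5G20900) of the count table were taken by name. They are 10 of the 32833 genes in the table, and their counts were followed in 322 of its 573 wells, those with at least 500 genes with a read, which are called cells below. The cells came from Arabidopsis thaliana seedlings of the Col-0 ecotype at 5 days after germination, all grown alike and all untreated as far as the labels say. All seedlings carried the pHB53:NLS-3xmCherry reporter, in which the promoter of the homeodomain gene HB53 drives a nuclear red fluorescent protein. The tissue was digested to protoplasts and mCherry-positive cells were sorted, so every cell shares the genotype and went through a digestion and a sort. The labels assign the cells to lateral root primordia of stages I-IV. They name 1 group with 3 replicates without saying which wells belong to which, and all cells are therefore treated as 1 sample. No test between samples was possible, and every relation below is a description of these cells.

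Jasmonate is an oxylipin hormone made in response to wounding and during development. In its absence JAZ proteins bind MYC transcription factors through a conserved C-terminal motif and recruit the NINJA and TOPLESS corepressors, in part through their ZIM (TIFY) domain. The active conjugate jasmonoyl-isoleucine joins JAZ proteins to the F-box receptor COI1, the JAZ proteins are degraded, and the freed MYC factors activate target genes through G-box motifs. The JAZ genes themselves are among those targets, so their transcripts are widely used as early markers of the response, to jasmonate and to wounding, in roots and leaves.

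The bases upstream of the members other than JAZ1 hold such boxes unevenly. The 250 bases before the annotated gene start are shown for JAZ5, the member closest to JAZ1 over cells, JAZ2 and JAZ6, the next closest pair, JAZ3, whose window held the most boxes, and JAZ12, the member least like the others among those read in at least 20% of cells. Sequences are from RefSeq (assembly TAIR10.1), read 5′ to 3′ on the strand of the gene, with capitals marking CACGTG (G-box) and AACGTG or its reverse complement CACGTT (T/G-box, a G-box variant).
JAZ5, chr1:5957512-5957761, minus strand: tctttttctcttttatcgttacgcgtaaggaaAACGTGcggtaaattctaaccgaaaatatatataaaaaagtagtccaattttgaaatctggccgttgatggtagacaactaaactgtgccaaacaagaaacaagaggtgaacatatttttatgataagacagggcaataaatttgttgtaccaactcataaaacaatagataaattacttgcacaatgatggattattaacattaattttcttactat
JAZ2, chr1:28150447-28150696, minus strand: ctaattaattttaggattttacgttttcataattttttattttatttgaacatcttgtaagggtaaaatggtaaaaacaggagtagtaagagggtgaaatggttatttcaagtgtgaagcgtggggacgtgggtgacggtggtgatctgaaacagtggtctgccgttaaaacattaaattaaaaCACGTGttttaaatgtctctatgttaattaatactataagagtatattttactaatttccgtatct
JAZ6, chr1:27276563-27276812, minus strand: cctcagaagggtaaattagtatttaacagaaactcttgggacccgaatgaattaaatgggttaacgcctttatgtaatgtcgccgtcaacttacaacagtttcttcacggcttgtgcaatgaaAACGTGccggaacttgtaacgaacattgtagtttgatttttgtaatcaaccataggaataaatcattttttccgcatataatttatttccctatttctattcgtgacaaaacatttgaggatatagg
JAZ3, chr3:6119457-6119706, plus strand: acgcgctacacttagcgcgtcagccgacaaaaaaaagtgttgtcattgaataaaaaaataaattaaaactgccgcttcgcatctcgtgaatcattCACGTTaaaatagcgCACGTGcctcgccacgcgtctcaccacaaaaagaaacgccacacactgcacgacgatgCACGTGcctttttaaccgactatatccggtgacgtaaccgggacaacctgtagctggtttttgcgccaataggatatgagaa
JAZ12, chr5:7090454-7090703, plus strand: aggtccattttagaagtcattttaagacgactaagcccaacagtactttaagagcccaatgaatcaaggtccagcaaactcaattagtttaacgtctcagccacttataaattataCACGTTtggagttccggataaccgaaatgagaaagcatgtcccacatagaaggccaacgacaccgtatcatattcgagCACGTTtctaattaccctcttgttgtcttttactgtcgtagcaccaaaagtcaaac
A G-box stood in the windows of 4 of these 9 members, against 1780 of 27443 windows of protein-coding genes (6.49%). Its first base lay 66 bases before the start in JAZ2, 140 and 82 bases before it in JAZ3, 34 bases before it in JAZ7 and 10 bases before it in JAZ8. A T/G-box, searched on both strands, stood in the windows of 4 members, JAZ3, JAZ5, JAZ6 and JAZ12, against 7.54% of all windows. Matches of the 2 motifs shared no bases. The windows of JAZ9 and JAZ10 held neither, and no match says only that these letters are not in this window. The JAZ6 window overlaps the annotated gene AT1G09307, and the JAZ10 window overlaps AT5G02045.

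The cells had a median of 245742 reads (8315 to 1459543) and 4009 genes with a read (506 to 9516). They came from 6 plates read on 3 flow cells, with 102, 96 and 124 cells, and median reads of 408532, 440181 and 132330 per cell. Among lateral root regulators taken as a list, LBD16, an early founder cell regulator, was read in 36.0% of cells and HB53 itself in 11.5%. GATA23 was read in none, which allows a share of up to 0.932%, taken as 3 in 322 cells and not as an exact binomial bound. A read of any JAZ member was held by 313 of 322 cells (97.2%), against 23 of the 251 wells under 500 genes (9.16%), which had a median of 3922 reads. Reads are not molecules, since no molecular identifiers were counted, so all intervals cover counting error only.

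JAZ1 was the member found in nearly every cell, and it carried most of the JAZ reads. JAZ1 encodes a repressor that binds COI1 and MYC2. It was read in 300 of 322 cells, 93.2% (95% exact binomial interval 89.8 to 95.7%), with 92.2%, 93.8% and 93.5% on the 3 flow cells. In wells under 500 genes its share was 5.58%. Per cell JAZ1 ranged from 0 to 7451 CPM, read counts scaled to a cell total of 1000000, with a median of 1029 CPM, and the flow cell medians were 1236, 956 and 953 CPM. Mean JAZ1 levels on the 6 plates lay between 972 and 1637 CPM, so no plate lacked it. Among all 32833 genes JAZ1 ranked 44th by the number of cells with a read and 48th by mean CPM. It made up 64.6% of all JAZ reads and was the member with the highest CPM in 277 of the 313 cells with any JAZ read. The 22 cells without a JAZ1 read had fewer genes, with a median of 1687.5 genes against 4162 genes in cells with a read, and 13 of them held a read of another member.

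**Figure D1:**
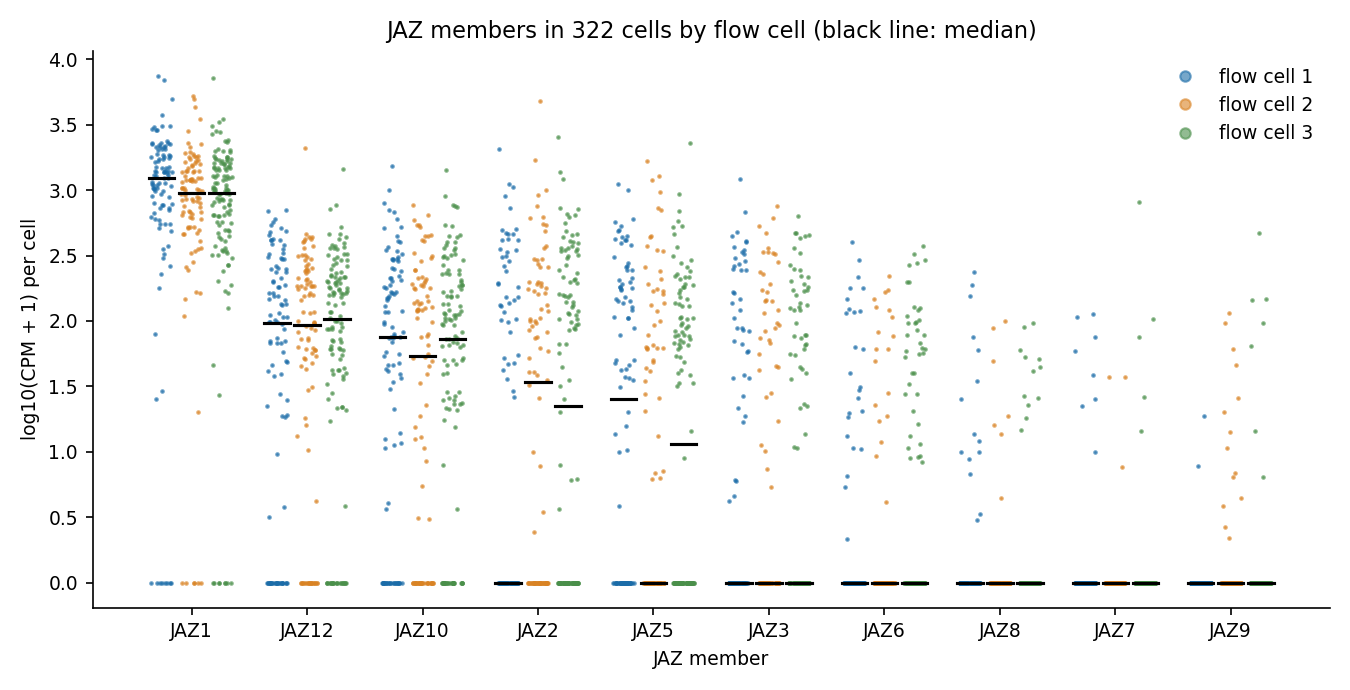
Each point is 1 of 322 cells, the y axis is log10(CPM + 1), the x axis lists the members by level, colours mark the 3 flow cells, and black lines are medians. JAZ1 medians are 1236, 956 and 953 CPM, JAZ12 and JAZ10 have medians above 0 on all 3 flow cells, and JAZ3, JAZ6, JAZ7, JAZ8 and JAZ9 have medians of 0.

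JAZ12 and JAZ10 were the next most widely read members. JAZ12, a substrate of the ubiquitin ligase KEEP ON GOING, was read in 77.6% of cells (72.7 to 82.1%), with 73.5%, 77.1% and 81.5% on the flow cells and with a median of 95.8 CPM (0 to 2113 CPM). JAZ10, a wound-induced member whose splice forms differ in stability towards jasmonate, was read in 72.4% of cells (67.1 to 77.2%), with 73.5%, 66.7% and 75.8% on the flow cells and with a median of 72.9 CPM (0 to 1530 CPM). Both were present on every plate, the lowest plate shares being 69.4% for JAZ12 and 60.0% for JAZ10. Exons of other annotated genes cover 4.53% of JAZ12 and 3.21% of JAZ10 exon bases, and how reads over 2 genes were counted is not known from the labels.

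JAZ2, JAZ5 and JAZ3 were read in 39.1% to 50.9% of cells. JAZ2, known for its part in guard cells during bacterial entry, was read in 50.9% of cells (45.3 to 56.5%), with a median of 3.85 CPM and a highest value of 4843 CPM. Its share was 42.2% on flow cell 1, against 56.3% and 54.0% on flow cells 2 and 3. JAZ5, which restrains jasmonate responses in roots together with JAZ10, was read in the same number of cells, 164, with 55.9%, 45.8% and 50.8% on the flow cells and a highest value of 2283 CPM. JAZ3, the gene altered in the dominant jasmonate-insensitive mutant jai3, was read in 39.1% of cells (33.8 to 44.7%), with 41.2%, 39.6% and 37.1% on the flow cells. Among cells with a read, the median was 176 CPM for JAZ2, 132 CPM for JAZ5 and 122 CPM for JAZ3. In the other cells no read of them was detectable at this depth.

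The remaining members were read in few cells. JAZ6, the closest relative of JAZ5, was read in 25.8% of cells (21.1 to 30.9%), with 24.5%, 19.8% and 31.5% on the flow cells and a median among cells with a read of 59.9 CPM. JAZ8, whose degron departs from the canonical form and which binds TOPLESS directly through an EAR motif, was read in 10.6% (7.42 to 14.4%). JAZ7, another member with an EAR motif, was read in 4.97% (2.87 to 7.94%). JAZ9, which also binds DELLA proteins of the gibberellin pathway, was read in 7.14% (4.58 to 10.5%), with 1.96%, 14.6% and 5.65% on flow cells 1, 2 and 3. The JAZ9 share differed between flow cells and between plates of 1 flow cell, with 9.43% on plate 6 against 2.82% on plate 7, both read on flow cell 3, and without flow cell 2 it was 3.98%. In wells under 500 genes JAZ7 was read in 1.195% (0.247 to 3.45%), an interval that overlaps the one in cells, while JAZ8 was read in 0.398% (0.0101 to 2.20%) and JAZ9 in 0 of 251 wells, with an upper bound of 1.46%. For JAZ7 and JAZ9, 22.4% and 22.2% of all reads came from 1 cell, and 52.2% and 34.3% of the CPM summed over cells came from the cell highest in CPM.

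Compared per kb of coding length, the members spanned more than 2 orders of magnitude in level. JAZ1 had a mean of 1577 CPM per kb (1276 to 2149 over the 6 plates), above the plate range of every other member. JAZ12 followed with 274 (237 to 309), JAZ10 with 217 (164 to 287), JAZ2 with 216 (161 to 292) and JAZ5 with 140 CPM per kb (89.0 to 195), and each of these plate ranges overlapped the next. The plate range of JAZ12 lay wholly above that of JAZ5, while the order of the other neighbours is not fixed by these cells. JAZ3, at 67.7 CPM per kb (57.8 to 80.1), lay below all plate values of JAZ5 and above all plate values of JAZ6, at 28.4 CPM per kb (14.4 to 39.9). JAZ8, JAZ7 and JAZ9, at 12.9, 10.7 and 5.09 CPM per kb, had overlapping plate ranges. Without the highest cell of each, these means were 11.1, 5.14 and 3.35 CPM per kb. The longest run of identical bases between the coding sequences of any 2 members was 20 bases over the 45 pairs, shorter than the 150 bp reads.

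**Figure D2:**
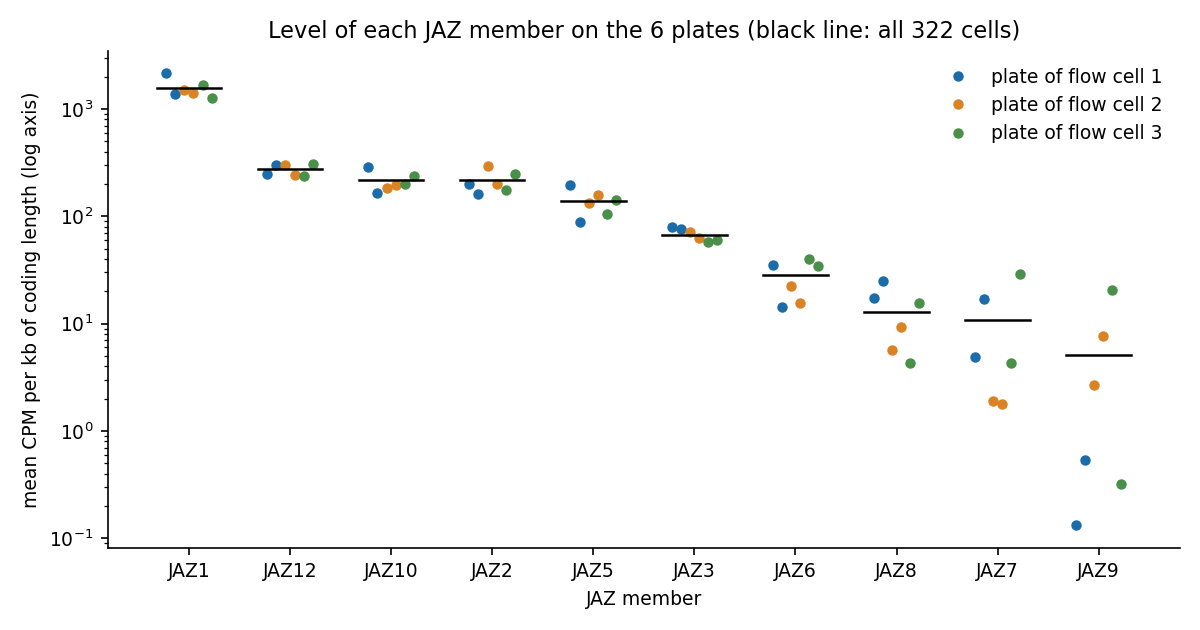
Points are the mean CPM per kb of coding length on each of the 6 plates, on a log axis, coloured by flow cell, and black lines are the mean over all 322 cells. JAZ1 stands above all others at 1577 CPM per kb, neighbours in the order JAZ12, JAZ10, JAZ2 and JAZ5 overlap, and JAZ9 varies most between plates, from 0.133 to 20.8 CPM per kb.

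The family members outside the 10 rows were at the low end as well. JAZ11 was read in 14.3% of cells, JAZ13 in 2.48% and JAZ4 in 2.17%, and of the related TIFY genes TIFY8 was read in 14.3%, PPD2 in 13.98% and PPD1 in 3.11%. PEAPOD genes PPD1 and PPD2, which act in leaf growth, share a run of 47 identical coding bases, also shorter than the reads. How reads like both were divided is not known from the labels.

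Most cells expressed several members at once. The median cell held reads of 4 of the 10 members, 153 of 322 cells (47.5%) held 5 or more, 9 cells held none and 2 cells held all 10. To compare cells of unequal depth, each cell was thinned at random to 100000 reads, which left 266 cells and put 56 shallower cells aside. Of the thinned cells 123 (46.2%, 40.1 to 52.4%) held 5 or more members, with 47.9%, 41.8% and 49.4% on the flow cells. Only 1 of 251 wells under 500 genes held 2 or more members. Where 10 reads rather than 1 were asked of a member, 18.4% of thinned cells held 5 or more. Cells with 5 or more members were richer in genes at equal depth, with a median of 4783 genes against 3236 genes in the other thinned cells. The summed JAZ level had a median of 1601 CPM (0 to 10375 CPM).

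JAZ members tended to be high in the same cells. For each pair, the Spearman correlation over thinned cells was taken within each flow cell and averaged over the 3. Of the 21 pairs among the 7 members read in at least 20% of thinned cells, 17 were above 0 on all 3 flow cells, against 41.4% of all pairs of genes read as widely. The median correlation of the 21 pairs was 0.23, against 0.0679 for all such gene pairs. JAZ1 and JAZ5 were the closest pair, with correlations of 0.37, 0.40 and 0.40 on the 3 flow cells (mean 0.39), followed by JAZ2 and JAZ6 with 0.46, 0.26 and 0.37 (mean 0.36). JAZ1 was read in 99.3% of the thinned cells that held JAZ5 and in 95.9% of all thinned cells. JAZ2 with JAZ10 (0.31) and JAZ5 with JAZ10 (0.30) came next. Among these 7 members JAZ12 was least like the rest, with a median of 0.11 over its 6 pairs and 2 of them above 0 on all 3 flow cells. Over the pairs with all 9 other members, JAZ9, read in few cells, had a lower median (0.0588) than JAZ12 (0.0790). The correlations are small. JAZ6 and JAZ3 were read in 24.1% and 37.2% of thinned cells, and many cells tied at 0 limit a rank correlation. How much of each member's variation was shared therefore cannot be told from these values. When each pair was taken only over the cells that held reads of both genes, 7 of 21 pairs were above 0 on all 3 flow cells, with a median of 0.13. Pairs of 1 of the 7 members with another widely read gene, taken over such cells, were above 0 on all 3 in 18.7%, with a median of 0.0330.

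**Figure D3:**
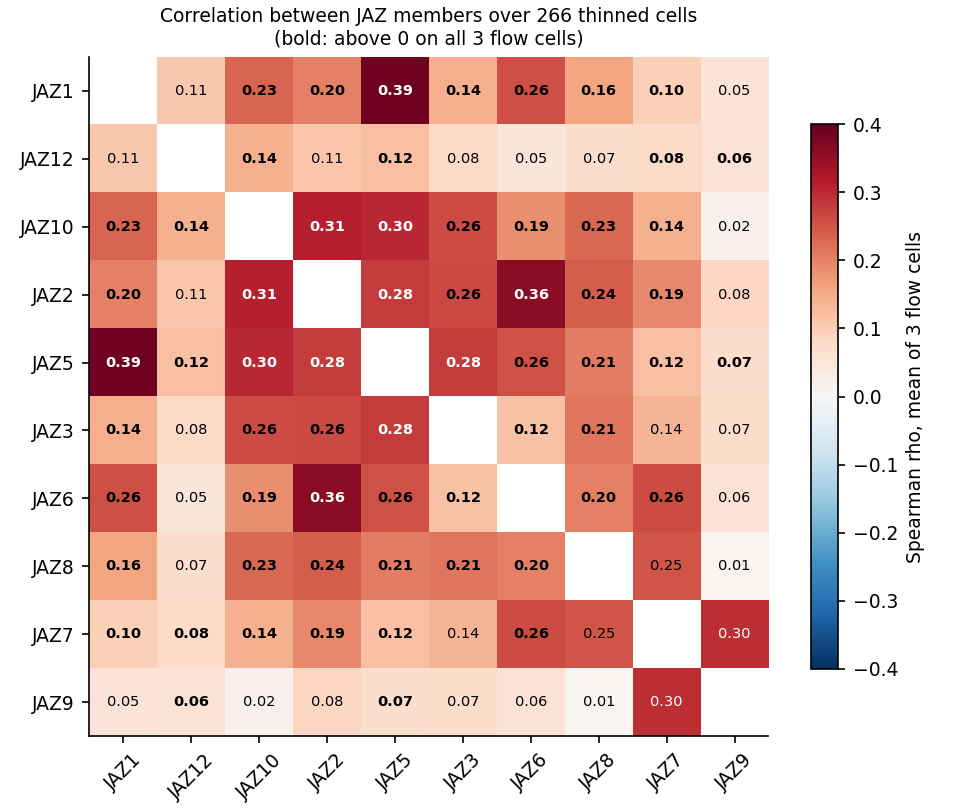
The 10 members are in rows and columns, colour and number give the Spearman correlation over 266 thinned cells as the mean of 3 flow cells, and bold marks pairs above 0 on all 3. The JAZ1 and JAZ5 pair is highest at 0.39, and the JAZ12 row is pale, with values of 0.05 to 0.14, as is the JAZ9 row apart from its pair with JAZ7 at 0.30.

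Members also differed in how they followed the richness of a cell. Over thinned cells the correlation with the number of genes read was 0.32 for JAZ3, 0.30 for JAZ2 and 0.23 for JAZ10, near the median of 0.27 over all genes measured. JAZ1 ran the other way on flow cells 1 and 2, with -0.24 and -0.23, and was at 0.00472 on flow cell 3. With gene number taken out of the ranks, 16 of the 21 pairs were above 0 on all 3 flow cells, with a median of 0.21, against 16.2% of all gene pairs under the same correction.

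The core of the jasmonate machinery was present in these cells, unevenly. Among receptor and corepressor genes, ASK1 and CUL1, which build the ubiquitin ligase around COI1, were read in 88.2% and 77.6% of cells, HDA19 and TPL, of the corepressor complex, in 56.2% and 54.0%, NINJA in 37.6% and COI1 in 18.6%. Of the transcription factors that JAZ proteins bind, MYC3 was read in 40.1% of cells, MYC4 in 2.17%, and the opposing bHLH factors JAM1, JAM2 and JAM3 in 33.5%, 32.3% and 18.0%. MYC2, the main activator, had 0 reads in all 573 wells. In the RefSeq annotation 98.54% of its exon bases are covered by another gene, AT1G32630, which had 250 reads in 22 cells. Of 561 coding genes covered to at least 90% by another gene, 492 (87.7%) had no read, against 6.89% of 19821 coding genes with no such overlap, so a count of 0 for MYC2 cannot be read as absence of its transcript.

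Enzymes of jasmonate synthesis ranged from widely read to rarely read, with 9 of the 18 genes read in under 50% of cells. The 4 most widely read were AOC3, ACX1, KAT2 and FAD7. AOC3, an allene oxide cyclase, was read in 88.5% of cells, ACX1 and KAT2, of the beta-oxidation that shortens the precursor, in 85.7% and 78.6%, and FAD7, the chloroplast desaturase that supplies the trienoic fatty acid, in 76.4%. At the low end, the lipase gene DAD1 was read in 4.04% of cells and the lipoxygenase gene LOX2 in 1.24%. Among catabolic genes IAR3, an amidohydrolase, was read in 62.1% of cells, CYP94B3, which hydroxylates jasmonoyl-isoleucine, in 57.1%, the jasmonate oxidase gene JOX4 in 40.7% and ILL6 in 30.1%. Of the responsive genes NAC072 was read in 53.7%, ERF109 in 40.4%, NAC055 in 20.5% and NAC019 in 18.3%. PDF1.2 and THI2.1, defence genes of shoots, had 0 reads in cells, which allows up to 0.932%, by the same limit as for GATA23.

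Several synthesis genes were high in the cells with a high JAZ level. Among 7323 genes read in at least 20% of thinned cells, 922 (12.6%) were correlated above 0 with the summed JAZ CPM on all 3 flow cells, with a median over all of them of -0.0321. Of 13 synthesis genes measured, out of 18, 8 were above 0 on all 3, with a median of 0.13. OPCL1, the ligase that activates the precursor for beta-oxidation, had 0.14, 0.35 and 0.35 on the flow cells (mean 0.28), AOS, the allene oxide synthase, 0.21, 0.26 and 0.33 (mean 0.26), and AOC3 0.25, 0.31 and 0.12 (mean 0.22). LOX6, a lipoxygenase, was below 0 on all 3 flow cells, with a mean of -0.13. AOC genes are close copies of each other, and reads between them may be divided unevenly. None of 8 receptor and corepressor genes measured was above 0 on all 3, with a median of -0.0602. JAM1 was the only one of 3 bHLH genes measured that was, with a mean of 0.22, and 2 of 5 catabolic genes were, IAR3 at 0.16 and ILL6 at 0.14. Of 15 jasmonate-responsive genes 2 were measured, and 1 of them, ERF109, was above 0 on all 3, with a mean of 0.41. Over all jasmonate lists 12 of 31 genes measured were above 0 on all 3 flow cells, and 15 of 31 against the summed CPM without JAZ1, where 23.1% of all genes were.

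Most regulators induced early by wounding and stress were high in the cells with a high JAZ level. Of 13 measured, out of 16, 12 were above 0 on all 3 flow cells, against 12.6% of all genes measured, with a median of 0.24. This list, like the others, was chosen with earlier results of these data known. Counts over the lists are therefore descriptions and not independent support. WRKY40, a WRKY repressor of defence, had 0.30, 0.49 and 0.44 on the flow cells (mean 0.41). CML37, a calmodulin-like calcium sensor, had a mean of 0.34, TCH4, a touch-induced cell wall enzyme, 0.33, and the zinc finger genes ZAT12 and ZAT10 0.32 each. TCH3, a touch-induced calmodulin-like gene, was the exception, with 0.18, -0.08 and 0.09. Every cell went through a digestion, and undigested tissue was not analysed here. Against the summed CPM without JAZ1, 10 of the 13 were above 0 on all 3, where 23.1% of all genes were. With the full sum, to set beside 12.6% of all genes, heat shock genes had 2 of 7 measured above 0 on all 3 (median 0.0669). ER body genes, of a root defence organelle, had 0 of 2, and lateral root regulators 2 of 7. Those 2 were ARF19, an auxin response factor, at 0.21 and PLT5 at 0.10, while PLT3, a PLETHORA gene of primordium development, had -0.20, -0.30 and -0.09.

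**Figure D4:**
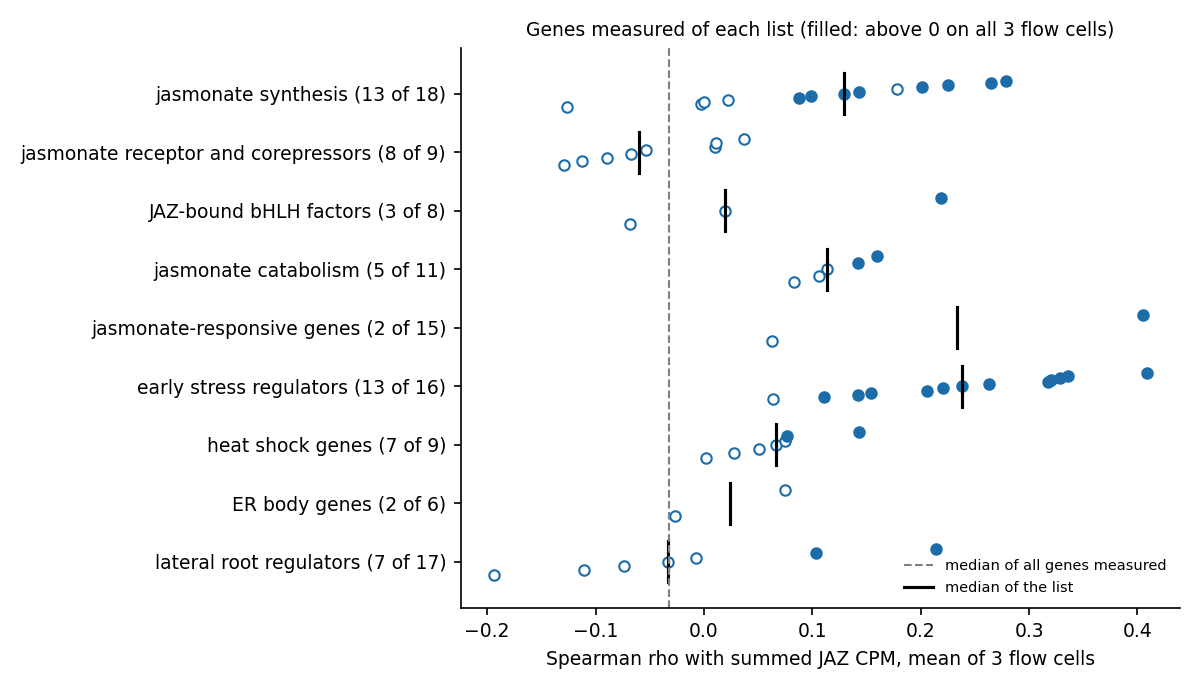
Each circle is 1 gene of a list measured in at least 20% of 266 thinned cells, the x axis is its Spearman correlation with the summed JAZ CPM as the mean of 3 flow cells, filled circles are above 0 on all 3, black bars are list medians and the dashed line is the median of all genes. Early stress regulators lie to the right, with 12 of 13 filled, and receptor and corepressor genes around the dashed line, with 0 of 8 filled.

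Outside the family, the 10 genes most like the summed JAZ level were led by WRKY40 and ERF109. WRKY40 and CML37 are in the list of early stress regulators and ERF109 in that of jasmonate-responsive genes. WRKY40 (0.41) and ERF109 (0.41) headed the order, ERF109 being an ERF factor that ties jasmonate to auxin synthesis in roots. They were followed by AT1G32920 (0.38), CML38 (0.37), the stress-induced F-box gene FBS1 (0.37), AT5G19110 (0.36), AT2G18210 (0.36), the glutaredoxin gene GRX480 (0.35), the sugar transporter gene ESL1 (0.34) and CML37 (0.34). Other genes cover 64.04% of the ERF109 exon bases, so its counts are uncertain. Since JAZ1 dominates the sum, the order was also taken without it. ERF109 then came top at 0.45, and 4 genes were in both sets of 10, the new ones including JAM1 at 0.34 and the phenylalanine synthesis gene ADT5 at 0.34.

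Single members had mostly different nearest genes, with AT2G18210 nearest to both JAZ5 and JAZ10. JAZ1 was most like WRKY40 (0.41) and FBS1 (0.39), with 11.2% of all genes above 0 on all 3 flow cells for JAZ1. JAZ5 was most like AT2G18210 and ERF109 (0.39 each, 21.9% of all genes), and JAZ10 most like AT2G18210 (0.34) and AT5G20190 (0.31, 39.2%). JAZ2 was most like OPCL1, at 0.40, 0.41 and 0.42 on the flow cells, and AT3G54000 (0.39, 47.8%). JAZ6 was most like AT5G66650 and ARF19 (0.37 each, 28.9%), JAZ3 most like AT2G43630 (0.32) and AT4G24780 (0.31, 48.1%), and JAZ12 most like AT5G05140 (0.28) and the autophagy gene ATG8G (0.27, 26.5%). Early stress regulators were above 0 on all 3 flow cells for 11 of 13 with JAZ1, 12 of 13 with JAZ2, 11 of 13 with JAZ5 and with JAZ6, 8 of 13 with JAZ3, 6 of 13 with JAZ10 and 4 of 13 with JAZ12. For JAZ10 and JAZ12 these counts were near the shares of all genes, 39.2% and 26.5%. The 8 of 13 with JAZ3 stand beside 48.1% of all genes, and over a list this short they are not clearly above it.

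Cells sorted by JAZ1 show how far the levels of other genes differed with it. Within each flow cell, the thinned cells were put in order of JAZ1, and the top 1 in 3 (JAZ1-high) was set against the bottom 1 in 3 (JAZ1-low), with 88 cells each. JAZ1 itself had a median of 1875 CPM in JAZ1-high cells and 410 CPM in JAZ1-low cells, which is how they were chosen. Of the 9 other members 5 were at least 2-fold higher in JAZ1-high cells on the mean and in the same direction on all 3 flow cells, against 6.3% of 17659 genes measured, and none was lower, against 10.3%. JAZ5 averaged 201 CPM in JAZ1-high cells and 33.4 CPM in JAZ1-low cells (log2 ratio 2.59), with 196, 250 and 153 CPM on the flow cells in JAZ1-high cells against 44.8, 29.0 and 25.2 CPM in JAZ1-low cells. It was read in 70.5% of JAZ1-high cells (59.8 to 79.7%) and in 31.8% of JAZ1-low cells (22.3 to 42.6%). The flow cell means of the 2 groups did not overlap, and the share of all genes without such overlap is not given here. JAZ6 averaged 42.5 CPM in JAZ1-high cells and 6.48 CPM in JAZ1-low cells (log2 ratio 2.71), and JAZ10 201 CPM in JAZ1-high cells and 79.2 CPM in JAZ1-low cells (1.35). JAZ8 (2.81) and JAZ7 (1.93) also passed, on reads in few cells. JAZ12 differed least, at 185 CPM in JAZ1-high cells and 142 CPM in JAZ1-low cells (log2 ratio 0.38), with a lower mean in JAZ1-high cells on flow cells 2 and 3. With organelle-encoded genes left out of the cell totals, 3 of 9 members passed.

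JAZ1-high cells were not richer in genes, with a median of 3568.5 genes against 4395 in JAZ1-low cells. By the rule above, 6.3% of 17659 genes measured were higher and 10.3% lower, the shares to set beside each count below. Of 16 early stress regulators 8 were higher in JAZ1-high cells, with a median log2 ratio of 1.40, against -0.10 over all genes. WRKY40 averaged 946 CPM in JAZ1-high cells and 231 CPM in JAZ1-low cells (2.04), and ERF1A 147 CPM in JAZ1-high cells and 44.7 CPM in JAZ1-low cells (1.72). Of 17 synthesis genes measured 4 were higher, DGL, LOX4, AOS and OPR3, and 1, ACX5, was lower, which is not above the share of all genes lower. OPR3, the reductase of the pathway, averaged 385 CPM in JAZ1-high cells and 188 CPM in JAZ1-low cells (1.04). The catabolic genes CYP94B3, at 420 CPM in JAZ1-high cells and 178 CPM in JAZ1-low cells (1.24), and CYP94B1 (1.16) were higher too, 2 of 9 measured. Of 9 jasmonate-responsive genes measured, out of 15, 1 was higher, ERF109 (2.46), whose counts are uncertain, and none was lower. None of the 9 receptor and corepressor genes and none of the 4 bHLH genes measured passed in either direction. Over lists this short, counts of 0 or 1 cannot be told from the shares of all genes. Gene richness moved with JAZ1 in these groups, and its part in the ratios was not tested.

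JAZ2 was higher in cells with pericycle markers than in the other cells. Marker cells were thinned cells with reads of at least 2 genes of a tissue list, and a member was called at a 2-fold difference of means and a single direction over the 3 flow cells. The 32 cells with pericycle markers averaged 394 CPM of JAZ2 and the other 234 cells 129 CPM (log2 ratio 1.61). On the flow cells these means were 544, 310 and 321 CPM in pericycle-marker cells, against 94.8, 180 and 110 CPM in the other cells. They did not overlap, and how many of all genes had no overlap is not given here. JAZ2 was read in 81.2% of pericycle-marker cells (63.6 to 92.8%) and in 47.4% of the other cells (40.9 to 54.0%). Where 3 markers were asked for, pericycle-marker cells were too few to compare, so these calls rest on the rule of 2 markers. JAZ6, JAZ7 and JAZ8 were called as well in pericycle-marker cells, 4 of 10 members in all, against 4.41% of genes called higher and 19.5% called lower. JAZ6 averaged 45.6 CPM in pericycle-marker cells and 18.8 CPM in the other cells (1.28), a ratio of 0.72 in wells with 1000 or more genes and of 0.93 without flow cell 1. JAZ8 averaged 14.7 CPM in pericycle-marker cells and 2.91 CPM in the other cells (2.34), and JAZ7 7.81 CPM in pericycle-marker cells and 1.45 CPM in the other cells (2.43). These last values rest on 7.81 to 14.7 CPM, and the call of JAZ7 was lost without its highest pericycle-marker cell (1.74) and that of JAZ8 at 50000 reads per cell (1.38). JAZ1 averaged 1788 CPM in pericycle-marker cells and 1157 CPM in the other cells (0.63) and was not called. Over all genes the median log2 ratio was -0.19 in pericycle-marker cells and 0.22 in vascular-marker cells. The count of calls was 10 over the 6 sets of marker cells both with and without a scaling that takes this shift out. This total was not set against calls over all genes, whose shares are given with each set. It does not show that members were called more often than other genes.

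In the 178 cells with vascular precursor markers, JAZ2 averaged 197 CPM, against 86.7 CPM in the other 88 cells (log2 ratio 1.19), and JAZ8 6.01 CPM, against 0.909 CPM in the other cells (2.73). Those were 2 of 10 members, against 15.4% of genes called higher and 2.48% called lower, and 25 of the 32 pericycle-marker cells (78.1%) were also in this set. The JAZ2 ratio was 1.00 without the vascular-marker cell highest in JAZ2, 0.31 where 3 markers were asked for and 0.14 without organelle-encoded genes, none of them called. The JAZ8 ratio was 2.11 in wells with 1000 or more genes and 2.34 where 3 markers were asked for, not called in either since its direction differed between flow cells. Vascular-marker cells also had more genes at equal depth, with a median of 4328.5 against 3164 genes in the other cells, and the part of this in the ratios was not tested. No member was called in the 86 cells with phloem markers, against 5.03% of genes higher and 8.59% lower, nor in the 95 cells with S phase markers, against 13.4% and 6.48%. JAZ1 averaged 1270 CPM in phloem-marker cells and 1215 CPM in the other cells, and 1048 CPM in S phase cells and 1335 CPM in the other cells. In the 50 cells with G2 and M phase markers only JAZ9 was called, lower, with a log2 ratio of -1.37, with 6.73% of genes higher and 11.1% lower, and JAZ1 averaged 955 CPM in G2 and M phase cells and 1297 CPM in the other cells (-0.44). JAZ9 was read in 2 of the 50 G2 and M phase cells, and 66.7% of its reads there came from 1 cell. Without flow cell 3 the JAZ9 ratio was -0.91 and was not called.

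The 22 cells with green tissue markers, a check for cells outside the root, gave calls for JAZ6 (log2 ratio 1.39) and JAZ8 (1.90), higher, with 2.76% of all genes called higher, and JAZ9 (-1.68), lower. These were 3 of 10 members, against 23.0% of genes called in either direction. The JAZ9 ratio was 1.47 at 50000 reads per cell, the opposite direction. JAZ6 averaged 50.9 CPM in green-marker cells and 19.4 CPM in the other cells, and 45.5% of those reads came from 1 cell. Without the highest green-marker cell the ratios were 0.58 for JAZ6 and 0.92 for JAZ8, and JAZ9 was read in 1 green-marker cell. Endodermis markers and stem cell niche markers each marked 14 cells, and xylem, epidermis and root cap markers 3, 3 and 0 cells, too few to compare.

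**Figure D5:**
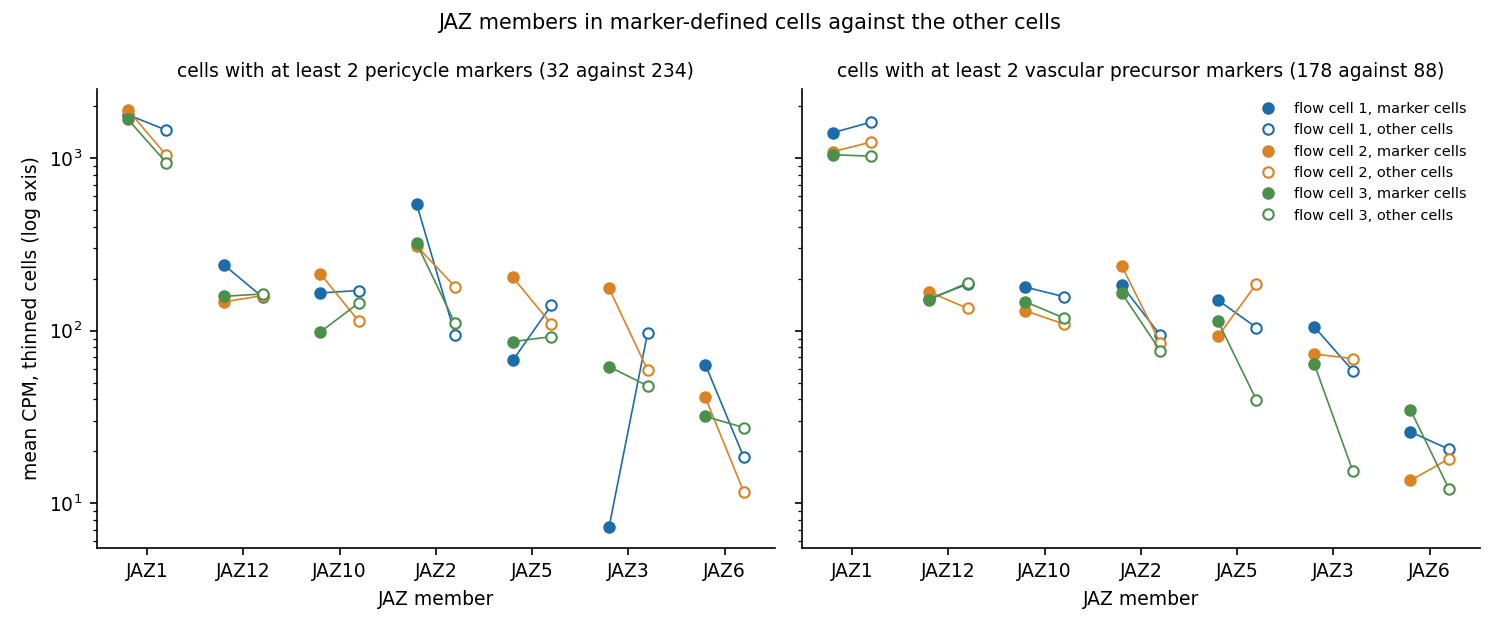
Filled points are mean CPM on a log axis in cells with at least 2 pericycle markers (left panel, 32 cells) or vascular precursor markers (right panel, 178 cells), open points the other thinned cells, and lines join the values of 1 flow cell. In the left panel JAZ2 runs from 310 to 544 CPM in marker cells and from 94.8 to 180 CPM in the other cells, while JAZ12 and JAZ10 differ in direction between flow cells.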

How the data were processed

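Single-cell RNA sequencing was done on sorted lateral root primordium cells. The authors deposited raw read counts per gene and plate well; the values are whole numbers with unequal totals. The submitters' processing notes name the TAIR10 build, and the sources used here give no aligner, counting rule or strand setting. Without molecular identifiers, PCR copies of a read add to the count. Wells with at least 500 genes were kept, with no doublet caller, since a well is taken as 1 cell. Counts were scaled to CPM, thinned to 100000 reads per cell (seed 7), ranked within flow cells and compared between marker classes (genes measured: at least 10 reads in at least 5 cells) with numpy 2.4.6, pandas 2.3.3 and scipy 1.17.1. The calling steps were tested on simulated data. Upstream windows came from RefSeq TAIR10.1, that of JAZ1 not being reported here. No p-value was computed. The table held 0 other per-sample columns. Named were all members and TIFY genes, the 4 most widely read genes of each list, the 10 genes most like the summed JAZ level and the 2 most like each member; further genes were named after their values were seen. Members and lists were chosen with earlier results of these data known.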

Additional observations from a re-analysis of the deposited data

Results flagged for a closer look

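JAZ reads also appeared in the wells left out for having under 500 genes, which enter no comparison above. JAZ1 was read in 14 of these 251 wells (5.58%) and any member in 23 of them (9.16%), above the limit that a count of 0 allows. These wells held 7 to 106118 reads, and where their JAZ reads came from was not tested.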

How the results depend on the processing

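Under the alternatives, 46 values that answer a comparison held and 3 did not. A count was taken as held within 1.5 times its value and a share or level inside its 95% interval. Some values could not have changed. All members passed the filter on low counts, so leaving it out returned the same values, here and for single members. Detection of members was taken as the share of cells with JAZ1, which is counted again among the single members. Within that tolerance jasmonate genes above 0 on every flow cell used numbered 10 to 17 of 22 to 32 measured, against 12 of 31. The share of all genes above 0 moved too, from 12.6% to 19.8% without flow cell 1 and 25.8% without flow cell 2, the settings with 17. Calls in marker cells numbered 7 to 12, against 10, which does not mean that the same calls stayed. Nor does it mean that members were called more often than other genes. With 3 markers asked for, only JAZ9 in G2 and M phase cells kept its call. Pericycle-marker and green-marker cells were then too few to compare. The share of thinned cells with 5 or more members was 18.4% where 10 reads were asked for, since fewer reads pass, and 46.2% otherwise. The members higher in JAZ1-high cells numbered 3 of 9 without organelle-encoded genes and 5 of 9 with them, and the cause was not tested. The pairs above 0 on all 3 flow cells numbered 7 of 21 over cells with both genes, which leaves fewer cells, and 17 of 21 over all thinned cells. JAZ9 in green-marker cells had a log2 ratio of 1.47 at 50000 reads per cell, against -1.68, and the cause was not tested. Of the other values of single members 113 held, 10 moved and 13 lost their call, and 24 counts over gene lists held. With a flow cell left out, directions were counted on those remaining. Taking gene number out of the ranks and leaving out the highest marker cell were chosen after seeing the data. No paired analysis was possible because the columns carry no replicate number. JAZ7, JAZ8 and JAZ9 each had at least 10 reads in 3.11% of cells or fewer, so their values rest on few cells.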
